A study of Mus musculus with 6 samples.

Results

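Transcripts of 10 neutrophil granule protein genes were examined in sorted megakaryocyte-erythroid progenitors (MEP), bone marrow cells that give rise to platelets and red cells. The members were chosen by gene symbol and fall into 3 classes. Mpo, Elane, Prtn3 and Ctsg encode proteins of primary granules, Camp, Ngp, Ltf and Lcn2 proteins of secondary granules, and S100a8 and S100a9 a pair of calcium-binding proteins that neutrophils hold mainly in the cytosol. All 10 were measured, each by 1 probe set, out of 22180 genes with a symbol. The cells came from T-bet knockout mice (3 arrays) and wild-type mice (3 arrays). Both genotypes are given as C57BL/6, with neither age nor sex, and the labels call the arrays of a genotype biological replicates without saying whether each held 1 mouse. They state sorting from fresh marrow after antibody staining, but not the antibodies or how the knockout allele was made. T-bet is the T-box transcription factor of type 1 lymphocytes, and Tbx21 is its gene.

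Neutrophils fill their granules in a set order during maturation. Promyelocytes make the primary, or azurophil, proteins such as myeloperoxidase and the serine proteases, and the later myelocytes make the secondary, or specific, proteins such as lactoferrin. PU.1 and the C/EBP factors drive these genes, and Camp, Ngp, Ltf and Lcn2 depend on C/EBP epsilon. Primary granule transcripts also occur at low level in progenitors that are not yet committed, whereas secondary granule and S100 transcripts mark maturing myeloid cells. In bulk RNA such as this, fewer cells of a type and less RNA per cell cannot be told apart.

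The promoters of 5 members of the primary and secondary classes are shown as examples. Of these, Ngp did not follow its class across the arrays (Pearson's r = 0.917 with Prtn3 and -0.311 with Ltf). All 10 members matched the RefSeq promoter table (build GRCm38.p6), and the 250 bases before the annotated start were searched on both strands for GAGGAA, a core of PU.1 sites that other ETS factors share, and TTNNGNAA, a form of the C/EBP site. Mpo lies at chr11:87793534-87793783, Elane at chr10:79886062-79886311, Prtn3 at chr10:79879417-79879666, Ngp at chr9:110419558-110419807 and Ltf at chr9:111019042-111019291, all on the plus strand. Sequences run 5′ to 3′ towards the start, and capitals mark the matches, on either strand.

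Mpo: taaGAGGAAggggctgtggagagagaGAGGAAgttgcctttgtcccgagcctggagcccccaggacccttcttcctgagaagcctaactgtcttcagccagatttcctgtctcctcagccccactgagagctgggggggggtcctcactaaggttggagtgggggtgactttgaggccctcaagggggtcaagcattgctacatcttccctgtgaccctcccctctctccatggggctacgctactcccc
Elane: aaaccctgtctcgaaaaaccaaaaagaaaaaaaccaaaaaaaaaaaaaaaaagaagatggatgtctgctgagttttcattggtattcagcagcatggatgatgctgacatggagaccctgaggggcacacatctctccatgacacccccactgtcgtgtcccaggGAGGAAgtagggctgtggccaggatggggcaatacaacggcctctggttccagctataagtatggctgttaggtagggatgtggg
Prtn3: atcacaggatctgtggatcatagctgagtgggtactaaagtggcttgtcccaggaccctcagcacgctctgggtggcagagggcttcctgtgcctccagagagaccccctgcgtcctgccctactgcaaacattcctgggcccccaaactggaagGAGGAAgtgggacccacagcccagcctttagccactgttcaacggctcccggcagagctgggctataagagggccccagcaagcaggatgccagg
Ngp: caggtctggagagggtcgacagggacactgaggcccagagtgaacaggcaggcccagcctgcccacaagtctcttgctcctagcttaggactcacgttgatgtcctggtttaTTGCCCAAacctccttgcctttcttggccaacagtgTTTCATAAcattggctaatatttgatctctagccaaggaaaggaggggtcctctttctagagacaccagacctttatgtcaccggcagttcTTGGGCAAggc
Ltf: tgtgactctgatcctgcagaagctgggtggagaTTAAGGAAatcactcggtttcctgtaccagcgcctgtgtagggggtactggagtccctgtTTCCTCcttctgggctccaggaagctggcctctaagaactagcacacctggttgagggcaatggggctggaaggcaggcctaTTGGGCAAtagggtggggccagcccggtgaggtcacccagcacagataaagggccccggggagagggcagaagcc

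GAGGAA was found in all 4 primary granule promoters, in 2 of 4 secondary granule promoters and in 1 of the S100 pair, and in 23.3% of 32851 windows of this length. TTNNGNAA was found in 0 of 4 primary, 3 of 4 secondary and both S100 promoters, against 36.8% of all windows. The promoter of Camp, a secondary granule gene that is not shown, held neither motif. Ngp and Ltf both hold the run TTGGGCAA, in Ngp 11 and in Ltf 75 bases before the start. Ngp holds it again on the other strand, as TTGCCCAA, 138 bases before the start. Elane and Prtn3, which encode neutrophil elastase and proteinase 3, are neighbouring genes on chromosome 10, and each holds GAGGAA, 85 and 95 bases before its start. These matches describe the letters of the windows and show no binding.

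Values below are log2 signals as the authors deposited them, 3 values for a genotype run in the order of replicates 1, 2 and 3, and a difference is knockout minus wild type, so that 1 stands for a 2-fold difference in signal. Array medians lay between 6.44 and 6.53. Depth has no equivalent on these arrays, and their number, 3 for each genotype, limits the precision. No detection calls were used here; a probe set is called dim where its mean lies in the lowest 30% of all probe sets, below 5.70. Tbx21, the targeted gene, read 6.41, 6.60 and 6.46 on the knockout arrays, against 6.54, 6.62 and 6.60 on the wild-type ones. These values overlapped, and the genotype labels could not be checked by them. Sex-linked signal was mixed: Xist and Y-linked transcripts occurred together in knockout replicates 1 and 2 and in wild-type replicate 1. The replicate 3 array of each genotype had Y-linked transcripts without Xist, and wild-type replicate 2 had Xist without them. P-values therefore measure the spread between these 6 arrays, which may not be single mice.

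The cell label was checked against markers. Kit, the stem cell factor receptor of progenitors, had a mean of 12.01 ± 0.02 on knockout and 12.01 ± 0.06 on wild-type arrays (SD, n = 3 each). All 15 measured erythroid genes lay outside the dim 30%, among them Gata1, with means of 10.97 ± 0.03 on knockout and 10.96 ± 0.05 on wild-type arrays. So did all 12 measured granulocyte regulators and all 4 primary granule genes. Lying outside the dim 30% therefore does not tell these lineages apart. Some markers of mature neutrophils were among the dim probe sets. Ly6g, the Gr-1 antigen, averaged 5.20 ± 0.19 on knockout and 4.90 ± 0.25 on wild-type arrays. Retnlg, a resistin-like protein, averaged 4.66 ± 0.19 on knockout and 4.66 ± 0.12 on wild-type arrays. Of 25 measured genes of late neutrophils 11 were dim, against 3 of the 10 granule protein genes, Camp, Ltf and S100a8. The other 14 late neutrophil genes lay outside the dim 30%, among them Cyba and Pglyrp1. Cyba averaged 8.16 ± 0.11 on knockout and 8.33 ± 0.11 on wild-type arrays, and Pglyrp1 6.93 ± 0.12 and 6.90 ± 0.10. Late neutrophil signal was thus not dim throughout.

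None of the 10 granule protein genes passed limma's test between T-bet knockout and wild-type MEP (adjusted p = 1 for each, Benjamini-Hochberg over 41345 probe sets). No probe set of the whole array passed either (0%; smallest adjusted p = 0.0537). At an unadjusted p under 0.05 there were 0 members, against 4.92% of all probe sets (2.97% above and 1.95% below wild type) and 3.13% of genes. Knockout and wild-type values overlapped for all 10 members, and did not for 8.70% of genes. The median difference of the members was -0.00, as over all genes, with 5 members above 0 (48.2% of genes) and 5 below. The 95% interval of each of the 10 lay within 2-fold in either direction, and within 1.5-fold for 5 of them, against 98.0% and 85.9% of all genes. For Mpo and S100a8 it did so only narrowly, with upper bounds of 1.995-fold and 1.953-fold. Dim signals can understate a difference in RNA, so these are bounds on signal.

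**Figure D1:**
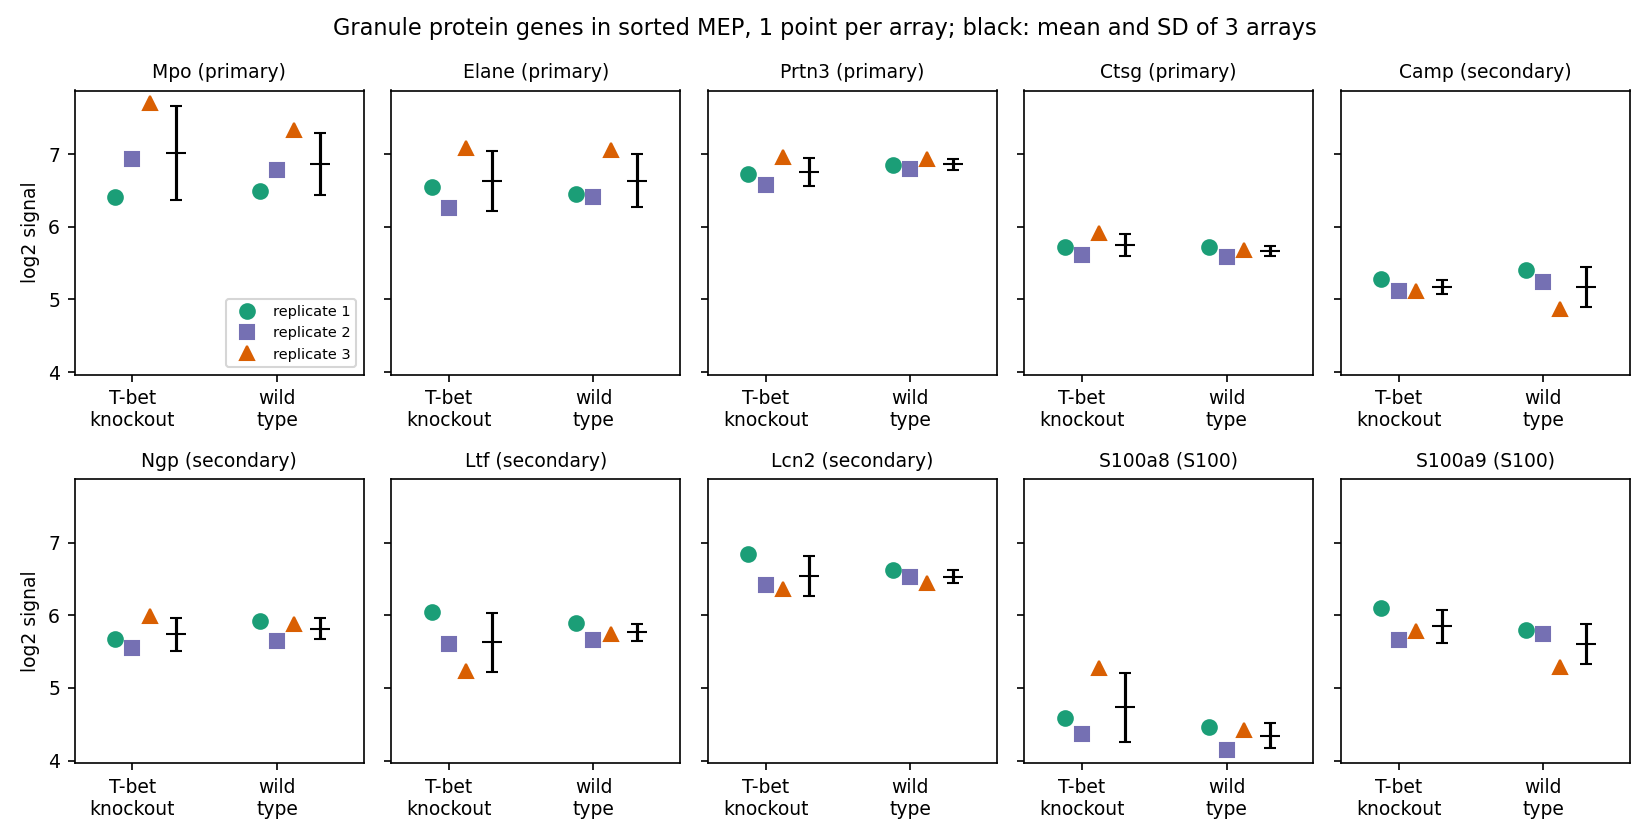
Log2 signal of each granule protein gene on the 6 arrays, T-bet knockout left of wild type, with colour and shape giving the replicate number and the black bar the mean and SD of 3 arrays. The groups overlap in all 10 panels, and Mpo and Elane are highest in both replicate 3 arrays.

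Mpo, which encodes myeloperoxidase, the peroxidase of primary granules, read 6.42, 6.94 and 7.70 on the knockout arrays, against 6.49, 6.79 and 7.33 on the wild-type ones. Both groups spanned a wide range, with their highest value in replicate 3 and their lowest in replicate 1. The mean was 7.02 ± 0.65 on knockout and 6.87 ± 0.43 on wild-type arrays, which differ by 0.15 (SE 0.35, 95% interval -0.70 to 1.00, exact permutation p = 0.7). Its SD over all 6 arrays, 0.50, was larger than that of 98.9% of genes, whose median was 0.14. The sign of the Mpo difference depended on single arrays: it was -0.19 without knockout replicate 3 and -0.04 without wild-type replicate 1. Without the 3 arrays that carry both sex-linked signals it was 0.64. Here and for the members below, that fit leaves knockout replicate 3 as the only knockout array. Within the arrays with both signals the Mpo difference was 0.19, and between the replicate 3 arrays, which carry Y-linked signal alone, 0.37.

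Elane, the gene of neutrophil elastase, read 6.54, 6.27 and 7.09 on the knockout arrays, against 6.45, 6.40 and 7.05 on the wild-type ones. As with Mpo, both replicate 3 arrays stood above the other 4. The genotype means were 6.63 ± 0.42 on knockout and 6.64 ± 0.36 on wild-type arrays, which differ by -0.01 (SE 0.26, 95% interval -0.63 to 0.61, exact permutation p = 1). It was 0.20 without wild-type replicate 3 and 0.36 without the arrays with both sex-linked signals. Its SD over the 6 arrays, 0.35, exceeded that of 95.6% of genes.

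Prtn3, next to Elane on the chromosome and encoding proteinase 3, varied less, with an SD of 0.14 over the 6 arrays. It read 6.73, 6.58 and 6.96 on the knockout arrays, against 6.86, 6.79 and 6.93 on the wild-type ones. Its difference was -0.11 (SE 0.12, 95% interval -0.40 to 0.19), and its replicate 3 arrays were again the highest pair. It was -0.017 without knockout replicate 2, -0.21 without knockout replicate 3, -0.069 when wild-type replicate 3 was left out and 0.10 without the arrays with both sex-linked signals. Ctsg, which encodes the serine protease cathepsin G, read 5.72, 5.61 and 5.92 on the knockout arrays, against 5.73, 5.59 and 5.68 on the wild-type ones, with a mean just above the dim limit. It differed by 0.09 (SE 0.11, 95% interval -0.18 to 0.35), and knockout replicate 3 was the highest array. Its difference was 0.15 without knockout replicate 2, 0.0027 without knockout replicate 3, 0.046 when wild-type replicate 2 was left out and 0.28 without the arrays with both signals.

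Secondary granule genes differed by -0.14 to 0.01 between genotypes, with 1 above and 3 below 0. Ltf, the iron-binding protein lactoferrin, read 6.04, 5.61 and 5.23 on the knockout arrays, against 5.90, 5.66 and 5.75 on the wild-type ones. The knockout arrays thus held its highest value, in replicate 1, and its lowest, in replicate 3, and the wild-type arrays lay between them. Its difference was -0.14 (SE 0.20, 95% interval -0.63 to 0.35), and 0.057 without knockout replicate 3. Lcn2, which encodes lipocalin 2, a protein that withholds iron from bacteria by binding their siderophores, read 6.85, 6.41 and 6.36 on the knockout arrays, against 6.63, 6.53 and 6.45 on the wild-type ones. Replicate 1 was the highest array of each genotype and replicate 3 the lowest, and the difference was 0.01 (SE 0.15), or -0.15 without knockout replicate 1.

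Camp encodes cathelicidin, the precursor of an antimicrobial peptide, and Ngp a related granule protein. Camp read 5.28, 5.11 and 5.11 on the knockout arrays, against 5.41, 5.24 and 4.87 on the wild-type ones, a difference of -0.01 (SE 0.15, 95% interval -0.37 to 0.36). Ngp read 5.67, 5.55 and 5.99 on the knockout arrays, against 5.92, 5.65 and 5.88 on the wild-type ones, a difference of -0.08 (SE 0.14, 95% interval -0.42 to 0.27). The class did not move as one: Ngp had its highest knockout value in replicate 3, where Ltf had its lowest. With 1 array left out in turn the Camp difference ran from -0.16 to 0.11 and that of Ngp from -0.20 to 0.016.

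The S100 pair had the largest differences of the 10 members, and neither passed the test. S100a8 read 4.58, 4.36 and 5.27 on the knockout arrays, against 4.47, 4.14 and 4.43 on the wild-type ones. Knockout replicate 3 stood above the other 5 arrays, and the remaining knockout and wild-type values overlapped. Within each replicate number the knockout array was the higher, by 0.11, 0.22 and 0.85. The difference was 0.39 (SE 0.24, 95% interval -0.18 to 0.97, exact permutation p = 0.3), and 0.13 without knockout replicate 3. With the replicate number as a block limma's unadjusted p was 0.0812, against 0.148 without it (adjusted p = 0.783 and 1). Within the arrays with both sex-linked signals it was 0.00, and between the replicate 3 arrays 0.85. Without the arrays with both signals it was 0.99, which rests on knockout replicate 3 alone.

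S100a9, whose protein pairs with S100a8 to form calprotectin, read 6.11, 5.66 and 5.79 on the knockout arrays, against 5.80, 5.74 and 5.29 on the wild-type ones. The difference was 0.24 (SE 0.18, 95% interval -0.18 to 0.67, exact permutation p = 0.5). Here knockout replicate 1 was the highest array and wild-type replicate 3 the lowest, so the partners did not share the array that stood out. The S100a9 difference was 0.12 without knockout replicate 1 and 0.08 without wild-type replicate 3.

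**Figure D2:**
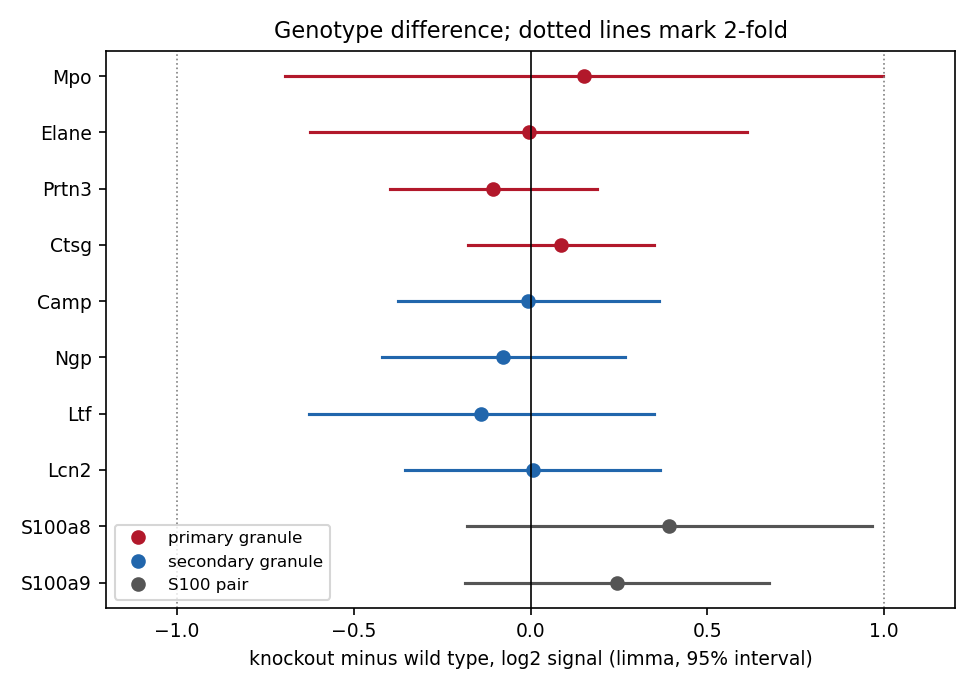
Difference in log2 signal, knockout minus wild type, for each granule protein gene, with limma's 95% interval; colours give the class and dotted lines mark 2-fold. All 10 intervals include 0 and stay inside the dotted lines.

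Primary and secondary granule genes were then set against each other, array by array, after each gene had been centred on its mean over the 6 arrays. The mean of the 4 primary genes was -0.17, -0.18 and 0.39 on the knockout arrays, against -0.14, -0.13 and 0.23 on the wild-type ones. The mean of the 4 secondary genes was 0.17, -0.12 and -0.12 on the knockout arrays, against 0.17, -0.03 and -0.06 on the wild-type ones. The primary class mean was thus highest in replicate 3 of each genotype and the secondary class mean in replicate 1, but not for each member: Ctsg was below its 6-array mean in wild-type replicate 3, and Ngp in knockout replicate 1. Primary minus secondary averaged 0.04 ± 0.43 on knockout and -0.04 ± 0.30 on wild-type arrays (SD, n = 3 each), a difference of 0.09, smaller than the spread between arrays of a genotype. Single arrays set its sign and size: it was 0.28 without knockout replicate 1 and -0.15 without knockout replicate 3. Leaving out wild-type replicate 1 gave -0.05, and leaving out wild-type replicate 3 gave 0.25. The mean of the S100 pair followed neither class, at 0.21, -0.12 and 0.40 on the knockout arrays, against -0.00, -0.19 and -0.28 on the wild-type ones. That mean joins genes that moved differently (Pearson's r = 0.221 between S100a8 and S100a9). Among the members S100a8 was most like Ctsg, a primary gene (0.974), though it also followed the secondary gene Ngp (0.653). S100a9 was most like Camp, a secondary gene (0.78).

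**Figure D3:**
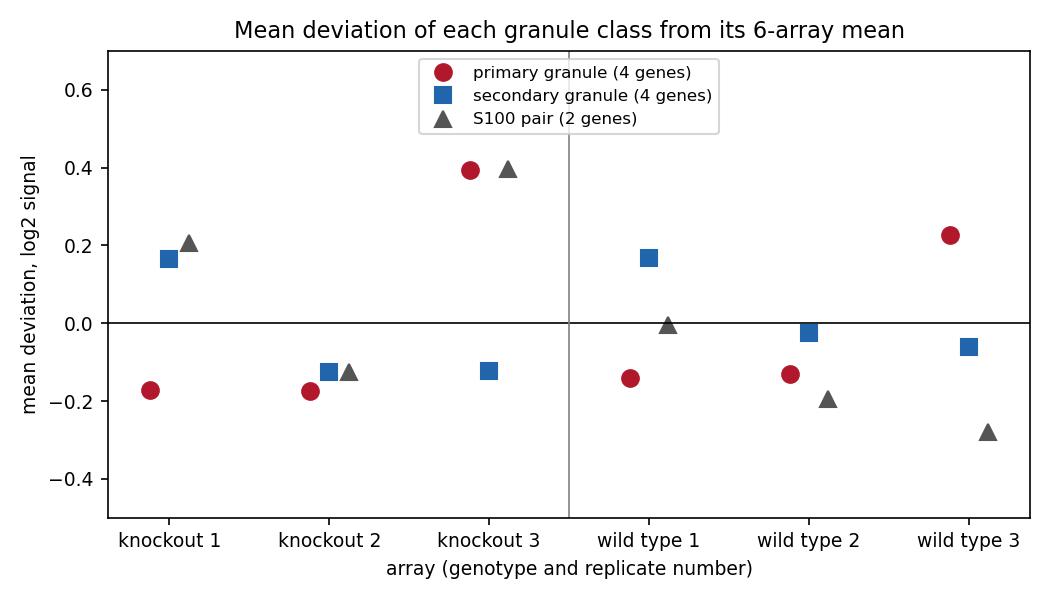
Mean deviation of the primary, secondary and S100 genes from their 6-array means, in log2 signal, with the knockout arrays left of the wild-type arrays. Primary genes are highest in knockout replicate 3 (0.39) and wild-type replicate 3 (0.23), secondary genes in both replicate 1 arrays (0.17 each).

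The resemblance of same-numbered arrays was examined after these values had been seen. Both replicate 3 arrays lay above the other 4 for Mpo, Elane and Prtn3, against 7.69% of all genes. The same held for 0 of the 4 secondary and 0 of the S100 genes, too few genes to set those classes apart from that share. With replicate number as a term beside genotype, limma gave an unadjusted p of 0.003375 for Mpo and 0.00489 for Elane (adjusted p = 0.490 for each), so neither passed the adjusted threshold, which 0.00484% of probe sets did. These 2 of the 10 members had an unadjusted p under 0.05 for that term, against 8.55% of all probe sets. The average of same-numbered arrays spanned 1.06 for Mpo and 0.74 for Elane, while knockout minus wild type within a number was -0.07, 0.15 and 0.37 for Mpo and 0.09, -0.14 and 0.03 for Elane. The labels do not say what a number shares, and the replicate 3 arrays were also those with Y-linked signal alone, so number and sex-linked class cannot be told apart for them.

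Other genes of the neutrophil pathway were counted from lists. Of 14 genes expressed with primary granules in early myeloid cells 7 lay above and 7 below 0, with 0 past the adjusted threshold or an unadjusted p under 0.05. Lyz1, a lysozyme gene, read 5.86, 6.03 and 5.83 on the knockout arrays, against 5.81, 5.65 and 5.67 on the wild-type ones, a difference of 0.20 (SE 0.10). It was the 1 gene of the 14 whose groups did not overlap, against 8.70% of all genes. Ms4a3, a membrane protein of granulocyte-monocyte progenitors, differed by 0.21 (SE 0.14) and Plac8 by -0.19 (SE 0.13). Both replicate 3 arrays were the highest pair for 4 of these 14, Cst7, Serpinb1a, Lyz2 and Hp, against 7.69% of all genes. The same held for 2 of the 25 late neutrophil genes, Anxa1 and the dim Mmp8, which is near that share. It also held for 2 of 12 granulocyte regulators and 2 of 15 erythroid genes.

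Of the late neutrophil genes 9 lay above and 16 below 0, where 48.2% of all genes lay above, with a median of -0.01, and 0 with an unadjusted p under 0.05. Ifitm6, an interferon-induced transmembrane family member, differed by 0.24 (SE 0.11), Ly6g by 0.29 (SE 0.16) and Lrg1 by -0.20 (SE 0.12). Ifitm6 and Ly6g were dim. The groups did not overlap for 1 of the 25, Ifitm6, against 8.70% of all genes. Among 12 granulocyte regulators 4 lay above and 8 below 0, with a median of -0.04 and 0 with an unadjusted p under 0.05. Csf3r, the receptor for granulocyte colony-stimulating factor, read 6.28, 6.22 and 6.15 on the knockout arrays, against 6.42, 6.33 and 6.45 on the wild-type ones, a difference of -0.19 (SE 0.09). It was the 1 regulator of the 12 whose groups did not overlap, near the share of all genes. Gfi1, a repressor needed for neutrophil maturation, differed by -0.08 (SE 0.10) and Irf8, which favours monocytes, by 0.07 (SE 0.11). Spi1, the gene of PU.1, differed by 0.02 (SE 0.11) and Cebpe, the gene of C/EBP epsilon, by -0.08 (SE 0.16); these were named for their role.

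Markers that moved with the granule genes across arrays were read beside them. Among 9 measured genes of progenitor gates, Cd34, Fcgr2b, Flt3 and Cd48 had both replicate 3 arrays as the highest pair, against 7.69% of all genes. The summed linear signal of the 9 spanned 7802 to 8368 in knockout and 7746 to 8089 in wild-type arrays, and 0 of them were dim. Most of that sum is Kit and Eng (mean of Eng 11.49 on knockout and 11.44 on wild-type arrays), which lacked the replicate 3 pattern. It therefore says little about the dimmer genes of the list. Cd34, a surface antigen conventionally absent from MEP and present on myeloid progenitors, read 6.43, 6.63 and 6.70 on the knockout arrays, against 6.53, 6.55 and 7.27 on the wild-type ones. Flt3, a receptor of multipotent and lymphoid-primed progenitors, read 5.70, 6.12 and 6.25 on the knockout arrays, against 5.97, 6.16 and 6.38 on the wild-type ones. Fcgr3, the CD16 antigen of granulocyte-monocyte progenitors, read 6.56, 6.44 and 6.28 on the knockout arrays, against 6.46, 6.40 and 6.49 on the wild-type ones. It was lowest in knockout replicate 3 and, among wild-type arrays, highest in replicate 3, while Mpo was highest in both. Of 13 measured megakaryocyte genes, 0 of them dim, 4 also had both replicate 3 arrays highest: Gp9, Vwf, Fli1 and Itgb3. In that list 1 gene lay above and 12 below 0, where 48.2% of all genes lay above, with a median of -0.19. Of the 13, 4 were lower at an unadjusted p under 0.05, against 3.13% of all genes in either direction. The adjusted threshold was passed by 0 of them. The summed signal of the list spanned 3578 to 4057 in knockout and 3874 to 4650 in wild-type arrays. The part of cells with these markers in the Mpo and Elane values was not tested.

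Monocyte genes, of which 12 were measured and 4 were dim, had both replicate 3 arrays highest for 0 of the 12, against 7.69% of all genes, too few genes to set them apart. Their summed linear signal spanned 768 to 902 in knockout and 761 to 930 in wild-type arrays. B cell genes, 12 measured and 3 dim, had a mean deviation of 0.15, -0.14 and 0.33 on the knockout arrays, against 0.02, -0.37 and 0.00 on the wild-type ones. Their summed signal was 1249 to 2168 in knockout and 989 to 1495 in wild-type arrays. The 11 immediate early and heat shock genes had their highest mean deviation, 0.87, in knockout replicate 3. That array was also the highest for S100a8, Ngp and all 4 primary granule genes. The list read -0.06 and -0.39 in knockout replicates 1 and 2 and 0.33, -0.66 and -0.08 on the wild-type arrays. Its genes differed: Ier2 and Junb had both replicate 3 arrays highest, while Hspa1a read 11.59 in knockout and 8.28 in wild-type replicate 3. Whether either list bears on the granule gene values was not tested.

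**Figure D4:**
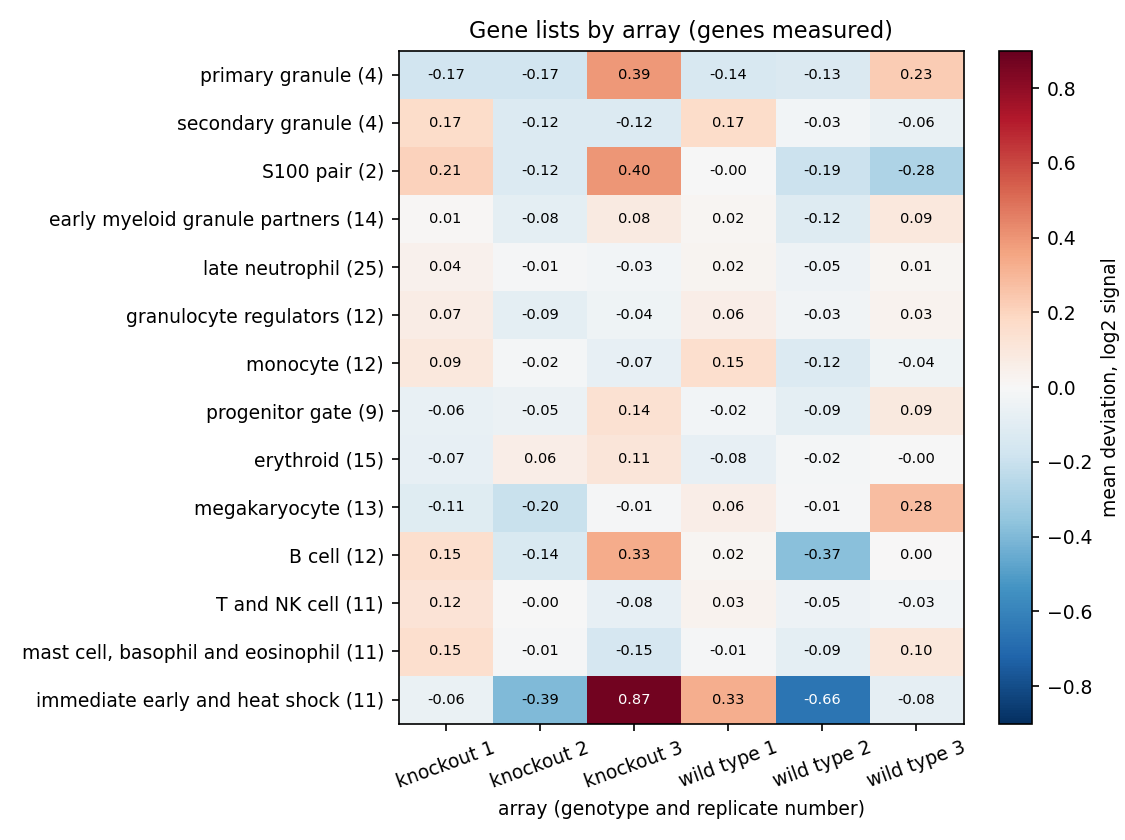
Mean deviation from the 6-array mean, in log2 signal, of each gene list (rows, number of genes measured in brackets) on each array (columns, knockout left of wild type). Primary granule genes share high values in both replicate 3 arrays with the progenitor gate list (0.14 and 0.09) and the early myeloid granule partners (0.08 and 0.09), while immediate early and heat shock genes are highest in knockout replicate 3 (0.87).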

How the data were processed

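RNA of sorted MEP was measured on 6 Affymetrix arrays, 3 per genotype, grouped by sample title. The deposited values are log2 signals of 41345 probe sets. Per the submitters' processing notes, the authors used Expression Console 1.4.1.46 (Affymetrix). Steps not given in the sources used here include background correction, normalization and summarisation. The log base was inferred from the highest value, 14.2, above 11.1, the natural log of a 16-bit maximum. Arrays were used as deposited.

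Symbols came from the array's annotation (23521 probe sets with 1 symbol, 1814 with several, 16010 unnamed), updated by gene ID through RefSeq GRCm38.p6; where a gene had several probe sets, the brightest on average stood for it. Differences were tested with limma 3.58.1 in R 4.3.3 (lmFit and eBayes, Benjamini-Hochberg over all probe sets, threshold 0.05), after a test on simulated data. Exact permutation tests were 2-sided, with a smallest possible p of 0.1; ± is the SD over 3 arrays. Members, lists and tests were chosen with earlier results of these data known. The naming rule took all members, Tbx21, the 3 genes of smallest p per list and the 5 genes per class most like its array pattern; of these, the ones bearing on granule genes are printed. Progenitor markers, genes highest in both replicate 3 arrays and others outside the rule were chosen after their values were seen. No table used here marks control probe sets, so all stayed in the fit.

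Deviations from group means correlated between same-numbered arrays at 0.285, 0.116 and 0.115 over 1 probe set per gene (0.0569 for number 2 over all probe sets), so numbers were treated as pairs, in the replicate block and the comparison of same-numbered arrays only. Alternatives covered scaling, dim and unnamed probe sets, the mean of a gene's probe sets, limma-trend, array weights, both blocks and each array left out.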

Additional observations from a re-analysis of the deposited data

How the results depend on the processing

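The 10 members were recomputed under 16 alternatives, 1 of them, without the arrays that carried both sex-linked signals, chosen after the data were seen. In 157 recomputed member differences none passed limma's adjusted threshold. Leaving aside the fit without those arrays, an unadjusted p under 0.05 occurred only for S100a8 without knockout replicate 2 (a difference of 0.58). The fit without those arrays sets knockout replicate 3 alone against 2 wild-type arrays, assumes that it varies as they do, and is given as values only. The direction held in 137 and turned in 20, and the cause was not tested. Many of the 137 were fixed in advance. Limma-trend, the replicate block and the fits without dim or unnamed probe sets leave a difference as it was. So does the mean of all probe sets of a gene, since each member has 1. With 1 array left out the difference ran from -0.19 to 0.45 for Mpo, -0.23 to 0.20 for Elane, -0.16 to 0.11 for Camp, -0.20 to 0.016 for Ngp, -0.35 to 0.057 for Ltf, -0.21 to -0.017 for Prtn3 and 0.0027 to 0.15 for Ctsg. The primary median ran from -0.20 (without knockout replicate 3) to 0.17 (without knockout replicate 2), against 0.04 with all arrays, and was -0.068 without wild-type replicate 1, -0.038 without wild-type replicate 2 and -0.058 with array weights. Primary minus secondary ran from -0.15 to 0.28. Signs turned without knockout replicate 1 for Elane (0.038) and Lcn2 (-0.15), without knockout replicate 2 for Elane (0.18), Camp (0.022) and Ngp (0.016), and without knockout replicate 3 for Mpo (-0.19), Camp (0.021) and Ltf (0.057). They also turned without wild-type replicate 1 for Mpo (-0.039) and Camp (0.11), without wild-type replicate 2 for Camp (0.029), and without wild-type replicate 3 for Elane (0.20) and Lcn2 (-0.037). Lcn2 was -0.055 with array weights and -0.038 with the sex-linked class as a block. Without the arrays with both signals Elane was 0.36, Prtn3 0.10, Camp 0.057, Ngp 0.23 and Lcn2 -0.13, and the median was 0.32 for the primary genes and 0.63 for the S100 pair. Ltf kept its sign there, at -0.47 against -0.14 with all arrays. The replicate block left each difference as it was (Mpo 0.15) and changed no call. Over all probe sets 1 passed after median centring of arrays, 1 under array weights, and 0 to 2 with an array left out (2 without knockout replicate 3). Without dim probe sets Camp, Ltf and S100a8 had no value.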

Other observations

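Genes whose profile over the 6 arrays was most like the mean of each granule class were ranked among 1671 genes outside the dim 30% with an SD of at least 0.2, leaving out predicted genes, Riken clones and chemosensory receptors. The points share replicate numbers and sex-linked classes, and the highest of many correlations over 6 arrays are large by selection, so the values are descriptions. Susd2, a sushi domain membrane protein, came first for the primary class (Pearson's r = 0.993), at 8.25, 8.17 and 8.69 on the knockout arrays, against 8.26, 8.25 and 8.55 on the wild-type ones. Taf7 (0.983), Gstk1 (0.982), Gem (0.981) and Slc25a2 (0.977) followed. For the secondary class Phldb1 (0.966), Tenm4 (0.965), Mir1946a (0.963), Rpp25 (0.953) and Grp (0.952) led. For the S100 pair these were Il1r2 (0.982), the decoy interleukin-1 receptor that neutrophils carry, H4c8 (0.968), Tnfrsf26 (0.946), Serpinb6c (0.944) and Otol1 (0.914). Il1r2 read 6.15, 5.76 and 6.26 on the knockout arrays, against 5.89, 5.80 and 5.71 on the wild-type ones. It differed by 0.26, and none of the 15 was on a gene list used here.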
